A study of Mus musculus with 9 samples.

Results

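Translation initiation and elongation factors were taken as the protein-coding genes whose symbol begins with Eif or Eef and a digit, without the Eif2ak kinases, and with 10 or more raw counts in each of 9 libraries. Of 21890 protein-coding genes listed, 64 carried such a symbol and 60 reached the floor. Members were thus chosen by their measured counts in these libraries, and their presence is no result. By symbol 48 of the 60 are initiation factors (Eif) and 12 are elongation factors (Eef). By function 41 act in initiation and 8 in elongation, with Eif5a and Eif5a2 in the elongation class. The other 11 are modifying enzymes, partners that restrain the cap-binding protein, and genes with a main role outside translation.

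The libraries hold polyA RNA of CD11b+ cells sorted by FACS from brains of adult male C57BL/6J mice that carried GL261 luc+ tdT+ gliomas, so each group is tumor-bearing. CD11b is found on microglia, infiltrating monocytes and macrophages, neutrophils and some NK cells, and each library mixes such cells. CTR mice received saline (2 libraries), OAT-1746 mice an oral inhibitor of arginase 1 and 2 (2 libraries), anti-PD-1 mice a checkpoint-blocking antibody (2 libraries) and COMB mice both agents (3 libraries). For anti-PD-1 replicate 2 the label gives anti-PD-2 as the treatment, and the title decided its group. Total counts were 17490386 and 17729568 in CTR, 17380045 and 16784406 in OAT-1746, 14356928 and 18796479 in anti-PD-1, and 13048075, 16144518 and 14806017 in COMB. The study calls the libraries biological replicates. Each p-value of the main fit sets a group difference against the spread between libraries, estimated with all groups and with other genes.

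Just above the floor lay Eef1a2, with 18 to 77 counts per library, Eef1akmt4, with 26 to 125, and Eef1akmt2, with 92 to 151. Just under it lay Eif3j2, with 3 to 17 counts, Eef1akmt3, with 0 to 3, and Eif4ebp3, with 0 to 2. Eif4e1b had 0 counts in each library, which allows up to 3 counts by counting error alone.

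Initiation factors load the initiator tRNA and the small ribosomal subunit onto a capped mRNA, scan to the start codon and join the large subunit. Elongation factors then deliver each aminoacyl-tRNA and move the ribosome along by codons, and eIF5A eases the joining of difficult residues such as prolines. In macrophages and microglia, signals through eIF2, eIF4E and the kinase of eEF2 are known points where protein output is set.

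Levels are given as CPM, the counts scaled by TMM-adjusted library size, and levels of different genes were compared as CPM per kilobase (kb) of exon. On that scale the CTR mean was 4834 for Eef1a1, the main carrier of aminoacyl-tRNA, at chr9:78478449-78489151. The next was Eef2, the translocation factor, at 1304 CPM per kb. Eif3h, a subunit of the eIF3 scaffold, followed with 225 CPM per kb, and Eif5a with 219. Their order depends on the length used. Exons spanned 1612 bases for Eif3h and 2377 for Eif5a, and the longest transcripts 1295 and 1437. By the longest transcript Eif5a stood above Eif3h. Eef1a2, the form of eEF1A known from muscle and neurons, was lowest at 0.658 CPM per kb, and Eif2b3, a subunit of the eIF2B exchange factor, had 1.88. Subunits of eIF3 ran from 5.88 CPM per kb for Eif3j1 to 224.9 for Eif3h, while those of eIF2 lay between 10.05 for Eif2s3y and 22.19 for Eif2s1. Reads of near-identical processed copies (Eef1a1, Eif4a1, Eif1) and of paired genes (Eif2s3x and Eif2s3y, Eif3j1 and Eif3j2) count for neither place under unique mapping, so these levels are uncertain.

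OAT-1746 replicate 2 stood apart from the other libraries. Over the 12538 genes tested, its median absolute log2 difference from the CTR mean was 0.586, against 0.316 in OAT-1746 replicate 1 and 0.119 to 0.266 in the other 7 libraries. Over the Eif genes its median log2 difference from the CTR mean was -0.63, against -0.31 in OAT-1746 replicate 1. Over the Eef genes the same medians were -0.75 and -0.40. Medians of the other libraries lay between -0.21 and 0.10 for the Eif genes and between -0.13 and 0.22 for the Eef genes, so both OAT-1746 libraries were lowest in each class.

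**Figure D1:**
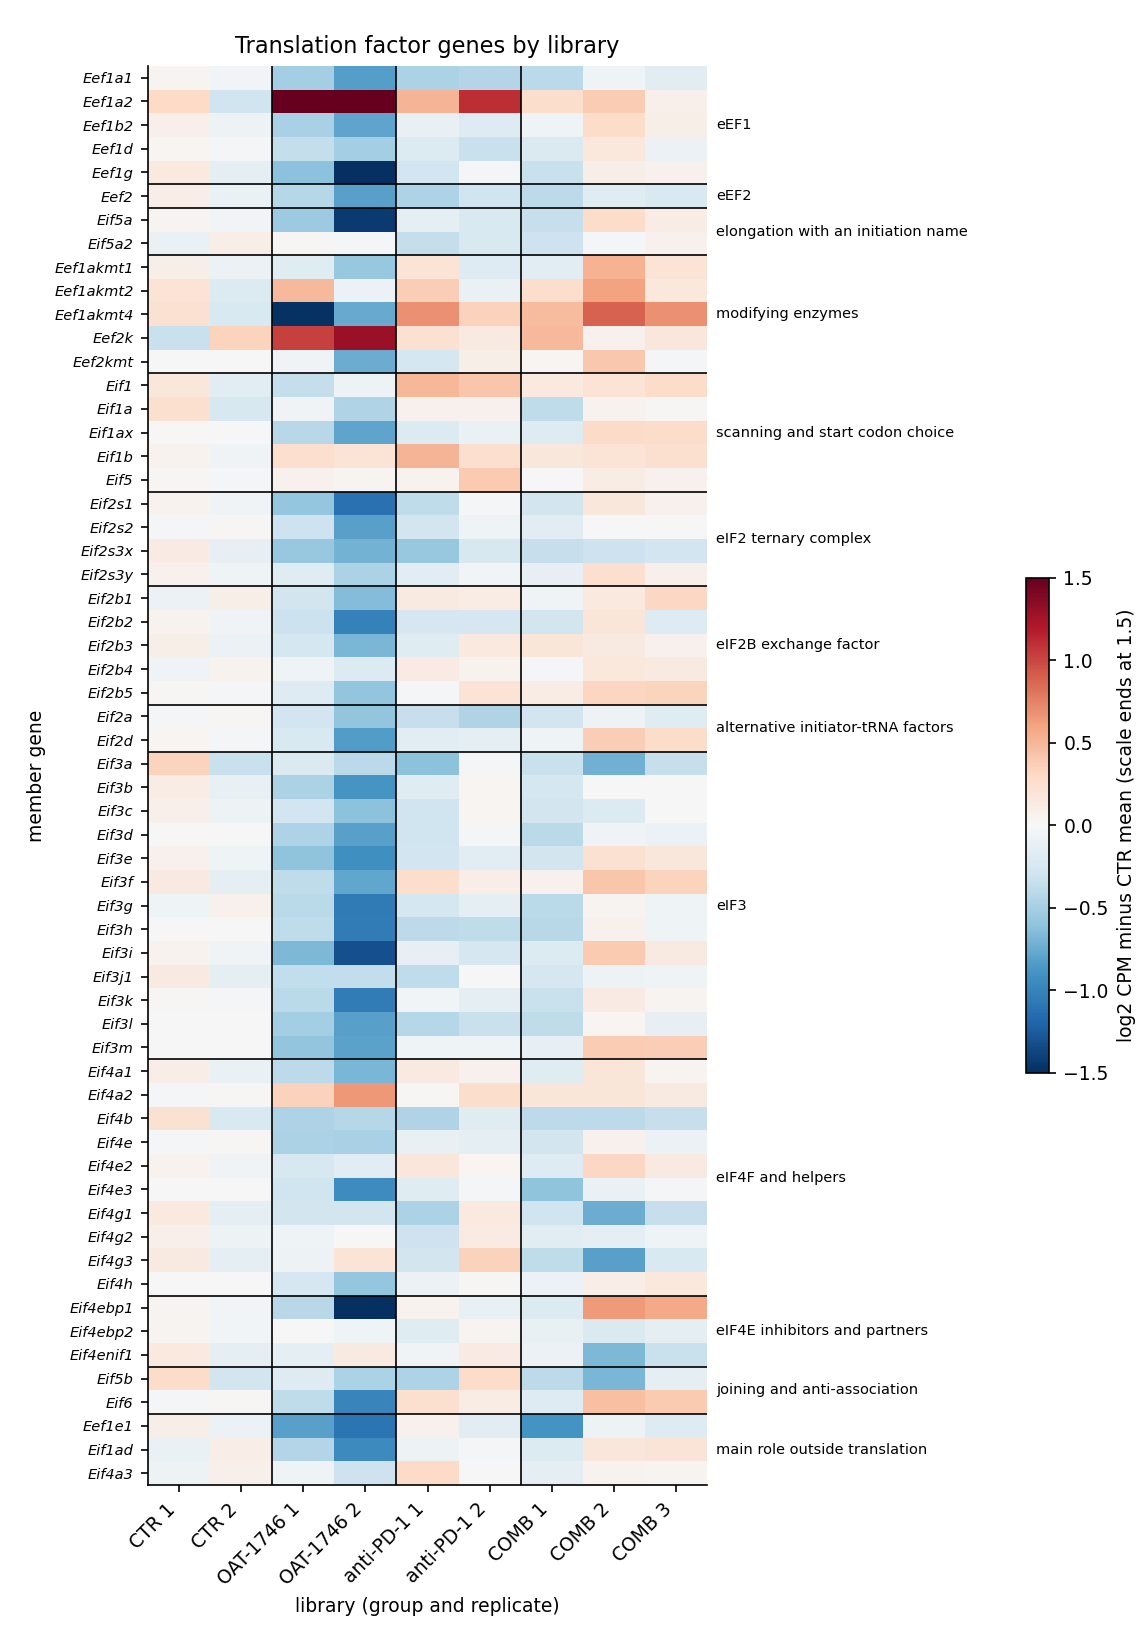
Log2 difference of each of the 60 members from the mean of the CTR libraries, with members ordered by role and 1 column per library. The OAT-1746 columns are mostly lower for the eEF1, eIF2 and eIF3 genes, and Eef1a2, Eef2k and Eif4a2 are higher there.

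The comparison of OAT-1746 with CTR asks what arginase inhibition alone does in these cells. RNA of most translation factors was lower in OAT-1746: 53 of 60 members had a negative log2 fold change, and for 44 the OAT-1746 pair lay wholly under the CTR pair (73.3%, against 32.1% of all 12538 genes tested). The median member stood at -0.46 on the log2 scale, and the median of all genes tested was 0.01. In edgeR 0 of 60 members passed an adjusted p under 0.05, as did 0% of all genes tested, and the lowest adjusted p of a member was 0.061. At an unadjusted p under 0.05, 34 members were lower (56.7%, background 16.2%) and 3 were higher, namely Eef1a2, Eef2k and Eif4a2 (5%, background 16.1%). DESeq2 called 20 members lower (background 7.52%) and 3 higher (background 8.4%). On simulated data with these group sizes, 200 genes were changed by a fold of 4. DESeq2 called 199 of these and 26 unchanged genes, and edgeR called 191 of them and 7 unchanged genes. Member log2 fold changes ran from -1.13 to 1.66, all within a fold of 4, so the simulated counts need not hold for the members. Fewer cells of a type and less RNA per cell cannot be told apart in such sorted bulk samples.

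These counts depend on single libraries. Without OAT-1746 replicate 1, edgeR called 33 members (55%, background 28.2%), and without COMB replicate 1 it called 2 (3.33%, background 2.23%). The members lower at an unadjusted p under 0.05 numbered 18 without CTR replicate 1, 22 without CTR replicate 2 and 13 without OAT-1746 replicate 2. The initiation median was -0.29 without OAT-1746 replicate 2 and -0.64 without OAT-1746 replicate 1, and the elongation median was -0.39 and -0.77. Scaling by library size alone moved the median of all genes to 0.10, with initiation at -0.38 and elongation at -0.44.

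Initiation and elongation factors were lower side by side in OAT-1746. By symbol the median log2 fold change was -0.46 over 48 initiation genes, 44 of them lower, and -0.53 over 12 elongation genes, 9 of them lower. By function the medians were -0.46 over 41 initiation genes, with 37 lower, and -0.63 over 8 elongation genes, with 7 lower. Within each library, the elongation median minus the initiation median by function was 0.01 and -0.01 in CTR, -0.15 and -0.16 in OAT-1746, -0.06 and -0.24 in anti-PD-1, and -0.06, 0.02 and 0.02 in COMB. As a difference of mean log2 CPM it was 1.24 and 1.2 in CTR, 1.36 and 1.25 in OAT-1746, 1.17 and 1.14 in anti-PD-1, and 1.19, 1.30 and 1.17 in COMB. In OAT-1746 elongation thus stood lower relative to initiation by the medians and higher by the means. The means include Eef1a2, a gene just above the floor, at 1.65 and 1.56 from the CTR mean in the OAT-1746 libraries. As 7 of the 8 elongation genes were lower, the direction by the means may rest on Eef1a2. The pooled SD of library medians within groups was 0.16 for initiation and 0.17 for elongation, by symbol.

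Summed levels separated the classes further, and Eef1a1 and Eef2 carried most of the elongation sum. The 8 elongation genes summed to 18630 and 17165 CPM in CTR, 12698 and 9928 in OAT-1746, 13185 and 13742 in anti-PD-1, and 13639, 17032 and 15964 in COMB. Each treated library lay under both CTR libraries, with OAT-1746 lowest. Group means were 17897 ± 1036 (SD, n = 2) in CTR, 11313 ± 1958 (n = 2) in OAT-1746, 13463 ± 394 (n = 2) in anti-PD-1 and 15545 ± 1735 (n = 3) in COMB. Relative to CTR these were 63.2%, 75.2% and 86.9%. The 41 initiation genes summed to 7061 and 6319 CPM in CTR, 5406 and 4711 in OAT-1746, 6034 and 6738 in anti-PD-1, and 5800.0, 6753 and 6742 in COMB. OAT-1746 was again under each other library, while anti-PD-1 and COMB overlapped CTR. Initiation means were 6690 ± 525 (SD, n = 2) in CTR, 5058 ± 491 (n = 2) in OAT-1746, 6386 ± 498 (n = 2) in anti-PD-1 and 6432 ± 547 (n = 3) in COMB, or 75.6%, 95.5% and 96.1% of CTR for the treated groups. All 60 members took 2.54% and 2.36% of protein-coding counts in CTR, 1.88% and 1.62% in OAT-1746, 2.05% and 2.03% in anti-PD-1, and 2.13%, 2.34% and 2.27% in COMB.

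**Figure D2:**
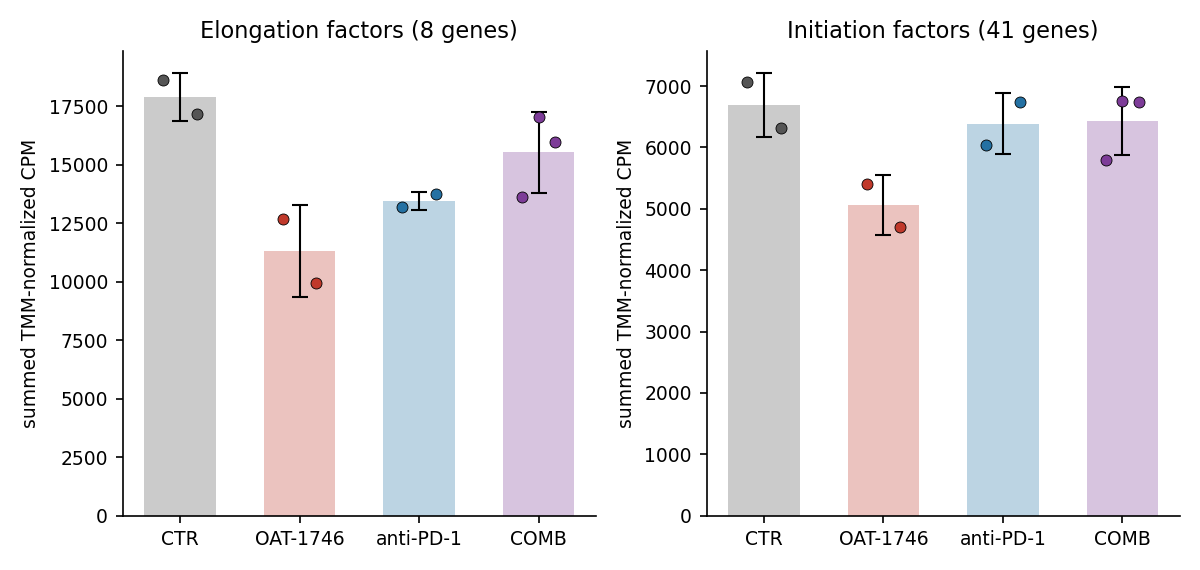
Summed TMM-normalized CPM of the 8 elongation and 41 initiation factors by function, with bars for group means, error bars for 1 SD and a point per library. OAT-1746 has the lowest libraries in both panels, and anti-PD-1 lies under CTR in the elongation panel but overlaps it in the initiation panel.

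The eEF1 complex brings aminoacyl-tRNA to the ribosome and recharges its carrier with GTP. Eef1a1, that carrier, had 12406 and 11695 CPM in CTR, 8441 and 6773 in OAT-1746, 8694 and 8881 in anti-PD-1, and 9049.7, 11467 and 10695 in COMB. All treated libraries lay under CTR and the OAT-1746 pair was lowest, with a log2 fold change of -0.66 ± 0.20 (SE) in OAT-1746 against CTR. It alone took 1.2% and 1.14% of protein-coding counts in CTR and 0.846% and 0.721% in OAT-1746. Eef1b2, the subunit that exchanges GDP for GTP, had 481 and 431 CPM in CTR, 324 and 264 in OAT-1746, 422 and 399.8 in anti-PD-1, and 434, 555 and 486 in COMB. OAT-1746 lay under all other libraries, by -0.63 ± 0.18 against CTR, and COMB overlapped CTR. Eef1d, a further exchange subunit, had 168 and 162 CPM in CTR, 129 and 116 in OAT-1746, 144 and 132 in anti-PD-1, and 142, 185 and 155 in COMB. Its OAT-1746 libraries were lowest, by -0.43 ± 0.17, with anti-PD-1 between them and CTR. Eef1g, the structural subunit that anchors the exchange complex, had 395 and 322 CPM in CTR, 233 and 123 in OAT-1746, 292 and 351 in anti-PD-1, and 284, 381 and 374 in COMB. OAT-1746 replicate 2 held the lowest value, and the log2 fold change was -1.01 ± 0.29, or -0.61 without that library and -1.54 without OAT-1746 replicate 1. Eef1a2, the muscle and neuron form of the carrier, ran the other way with 1.68 and 1.06 CPM in CTR, 4.48 and 4.18 in OAT-1746, 1.95 and 3.04 in anti-PD-1, and 1.63, 1.78 and 1.42 in COMB. Both OAT-1746 libraries exceeded all others, by 1.66 ± 0.38 against CTR, at a level that stayed far under Eef1a1 per length: 2.08 CPM per kb in OAT-1746, where Eef1a1 had 3051.

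Eef2 moves the ribosome by a codon after each bond is formed, and its kinase Eef2k phosphorylates it and slows that step. Eef2, at chr10:81176631-81182498, had 4632 and 4034 CPM in CTR, 3199 and 2444 in OAT-1746, 3153 and 3519.7 in anti-PD-1, and 3306, 3804 and 3679 in COMB. CTR was highest, OAT-1746 replicate 2 was lowest, and all COMB libraries lay between CTR and OAT-1746. The log2 fold change in OAT-1746 against CTR was -0.62 ± 0.20. Eef2k, at chr7:120842831-120907450, had 76.2 and 121 CPM in CTR, 196 and 236 in OAT-1746, 112 and 105 in anti-PD-1, and 134, 101 and 108 in COMB. Both OAT-1746 libraries lay over the 7 others, by 1.14 ± 0.24 against CTR. The count ratio of Eef2k to Eef2, times 1000, was 16.5 and 29.9 in CTR, 61.4 and 96.5 in OAT-1746, 35.6 and 29.8 in anti-PD-1, and 40.6, 26.5 and 29.4 in COMB. That ratio measures RNA of the enzyme and its substrate, and phosphorylation of eEF2 was not measured.

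Promoter windows were searched for features that members might share, since many moved together. RefSeq promoters (build GRCm38.p6, 250 bases before to 50 after the start) matched 48 of the 60 members with 62 windows. The E-box CACGTG, which reads alike on both strands, was in windows of 13 of 48 member genes (27.1%), against 8.09% of 27025 genes. It was in 3 of 6 elongation genes by function (50%) or 3 of 9 by symbol (33.3%), in 8 of 33 initiation genes by function (24.2%), and in 6 of 58 ribosomal protein genes (10.3%). The 27025 genes were all those with a promoter entry, not filtered by counts as the members were. A gene counted if any of its windows matched, and some genes had several. A TOP-like start, meaning a C at the annotated start or within 2 bases of it followed by at least 4 C or T bases on the gene's strand, was in 9 of 48 member genes (18.8%), against 10.6% of all. Among eIF3 genes 3 of 10 had an E-box and 3 of 10 a TOP-like start (30% each), and 21 of the 58 ribosomal protein genes had the latter (36.2%). The 4 windows that follow show Eef2 and its kinase, which differed in direction, and an eIF3 and an eIF2 subunit with TOP-like starts. They lie at chr10:81176381-81176680 on the plus strand, chr7:120842581-120842880 on the plus strand, chr7:108934165-108934464 on the plus strand and chrX:94212602-94212901 on the minus strand, written along the gene with capitals for an E-box or a TOP-like pyrimidine run. A match describes letters in the window and no binding was measured.
Eef2: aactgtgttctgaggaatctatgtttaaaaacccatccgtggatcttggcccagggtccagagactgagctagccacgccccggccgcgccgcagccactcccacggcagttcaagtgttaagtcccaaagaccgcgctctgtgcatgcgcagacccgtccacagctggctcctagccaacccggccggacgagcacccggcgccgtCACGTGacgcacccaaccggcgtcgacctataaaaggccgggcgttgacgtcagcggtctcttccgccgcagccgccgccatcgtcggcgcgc
Eef2k: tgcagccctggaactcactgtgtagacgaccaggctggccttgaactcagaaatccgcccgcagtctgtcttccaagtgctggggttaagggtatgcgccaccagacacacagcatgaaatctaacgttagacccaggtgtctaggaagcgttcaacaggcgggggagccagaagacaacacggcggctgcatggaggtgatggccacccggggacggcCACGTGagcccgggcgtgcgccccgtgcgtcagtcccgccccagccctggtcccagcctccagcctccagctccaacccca
Eif3f: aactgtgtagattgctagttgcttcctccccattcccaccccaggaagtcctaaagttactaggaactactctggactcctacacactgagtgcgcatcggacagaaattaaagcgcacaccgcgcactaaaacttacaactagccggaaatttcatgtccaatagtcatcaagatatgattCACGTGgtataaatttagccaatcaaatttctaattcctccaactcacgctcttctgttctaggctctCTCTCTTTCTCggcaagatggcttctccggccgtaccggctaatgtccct
Eif2s3x: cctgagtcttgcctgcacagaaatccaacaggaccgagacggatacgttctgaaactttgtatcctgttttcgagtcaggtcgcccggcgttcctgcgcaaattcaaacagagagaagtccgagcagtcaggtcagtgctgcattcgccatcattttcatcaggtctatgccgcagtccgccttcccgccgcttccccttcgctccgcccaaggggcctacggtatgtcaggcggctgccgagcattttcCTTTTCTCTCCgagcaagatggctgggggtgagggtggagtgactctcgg

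Eif5a carries the residue hypusine and helps elongation and release at slow motifs, whatever its initiation name says. It had 535 and 507 CPM in CTR, 355 and 192 in OAT-1746, 469 and 445 in anti-PD-1, and 412, 626 and 561 in COMB. OAT-1746 lay under all other libraries and replicate 2 of it was lowest, with a log2 fold change of -0.93 ± 0.29 against CTR, or -0.54 without that library and -1.45 without OAT-1746 replicate 1. Its paralog Eif5a2 had 11.5 and 13.3 CPM in CTR, 12.6 and 12.1 in OAT-1746, 9.62 and 10.6 in anti-PD-1, and 10, 12.3 and 12.9 in COMB. Both anti-PD-1 libraries lay under CTR and OAT-1746 there, while OAT-1746 overlapped CTR, at -0.01 ± 0.19.

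Scanning and start codon choice rest on eIF1, eIF1A and eIF5. Eif1, which keeps the ribosome from settling on wrong codons, had 261 and 205 CPM in CTR, 181 and 219.5 in OAT-1746, 328 and 309 in anti-PD-1, and 257, 266 and 282 in COMB. The anti-PD-1 pair was highest and OAT-1746 overlapped CTR at -0.22 ± 0.18, with -0.03 without CTR replicate 1 and -0.39 without CTR replicate 2. Eif1b, a close paralog, had 38.4 and 35.8 CPM in CTR, 44.1 and 42.7 in OAT-1746, 52.7 and 44.1 in anti-PD-1, and 41.6, 42.8 and 43.7 in COMB. All 7 treated libraries lay above both CTR libraries. Eif1ax, the X-linked eIF1A that stabilizes scanning ribosomes, had 60.9 and 62 CPM in CTR, 45.9 and 35.4 in OAT-1746, 53 and 57.4 in anti-PD-1, and 53.9, 75.2 and 73.9 in COMB. Its OAT-1746 libraries were lowest, by -0.60 ± 0.20. Eif5, which triggers GTP hydrolysis by eIF2 at the start codon, had 161 and 158 CPM in CTR, 167 and 163 in OAT-1746, 165 and 209 in anti-PD-1, and 160.2, 172 and 167 in COMB. It was nearly level, at 0.05 ± 0.16 in OAT-1746 against CTR, so this role held genes that were lower and genes that were not.

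The eIF2 complex carries the initiator tRNA, and eIF2B reloads it with GTP. Eif2s1, the subunit whose phosphorylation shuts reloading down, had 114 and 106 CPM in CTR, 73.6 and 50.6 in OAT-1746, 84.3 and 107 in anti-PD-1, and 90.7, 123 and 114 in COMB. OAT-1746 was under all other libraries, by -0.82 ± 0.23 against CTR. Eif2s3x, the X-linked GTP-binding subunit at chrX:94188707-94212862, had 54.1 and 46.1 CPM in CTR, 33.6 and 30.6 in OAT-1746, 33.5 and 42.4 in anti-PD-1, and 39.2, 40.3 and 40.8 in COMB. All 7 treated libraries lay under CTR, and OAT-1746 differed by -0.64 ± 0.16. Eif2s3y, its Y-linked copy at chrY:1010543-1028847, had 43.5 and 40.1 CPM in CTR, 36.8 and 30.2 in OAT-1746, 37.1 and 40.5 in anti-PD-1, and 38.5, 49.6 and 44.2 in COMB. OAT-1746 lay under all other libraries there, by -0.32 ± 0.17, or -0.17 without OAT-1746 replicate 2. The 4 eIF2 genes had a median of -0.59, and for each the OAT-1746 pair lay under the CTR pair (background 32.1%).

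For all 5 eIF2B genes the OAT-1746 pair lay under the CTR pair (background 32.1%), with a median of -0.46, or -0.26 without OAT-1746 replicate 2. Eif2b1, of the regulatory part that senses phosphorylated eIF2, had 20.6 and 23.2 CPM in CTR, 18 and 13.9 in OAT-1746, 24 and 23.7 in anti-PD-1, and 21.1, 24.2 and 27.2 in COMB. Eif2b2, of the same part, had 62 and 57.6 CPM in CTR, 47.8 and 29.6 in OAT-1746, 50.4 and 50.1 in anti-PD-1, and 49.4, 67.5 and 52.3 in COMB. OAT-1746 was lowest in each of these genes, while anti-PD-1 lay over CTR for Eif2b1 and under it for Eif2b2. Eif2b3, of the catalytic part, had 13.1 and 11.5 CPM in CTR, 10.2 and 7.61 in OAT-1746, 10.8 and 13.6 in anti-PD-1, and 13.9, 13.5 and 12.8 in COMB. Eif2b4, again regulatory, had 25.2 and 27 CPM in CTR, 25 and 22.6 in OAT-1746, 28.3 and 26.9 in anti-PD-1, and 25.7, 29.2 and 28.8 in COMB. For Eif2b4 the gap between OAT-1746 and CTR was small, at -0.13 ± 0.15, or -0.05 without OAT-1746 replicate 2 and -0.21 without OAT-1746 replicate 1. Eif2b5, the catalytic subunit, had 48.7 and 47.2 CPM in CTR, 42.1 and 31.9 in OAT-1746, 46.9 and 55.1 in anti-PD-1, and 51.8, 59.8 and 60.2 in COMB. Its COMB libraries lay over CTR and its OAT-1746 libraries under, by -0.37 ± 0.17, or -0.18 without OAT-1746 replicate 2 and -0.59 without OAT-1746 replicate 1.

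The eIF3 scaffold holds the small subunit, the tRNA complex and the mRNA together. All 13 member subunits had a negative log2 fold change in OAT-1746 against CTR, with a median of -0.66 (-0.40 without OAT-1746 replicate 2), and for 12 of 13 the OAT-1746 pair lay under the CTR pair (background 32.1%). Eif3a, the core subunit, was the exception with 297 and 188 CPM in CTR, 202 and 178 in OAT-1746, 153 and 233 in anti-PD-1, and 188, 144 and 185 in COMB. Its groups overlapped, at -0.35 ± 0.27, and without CTR replicate 1 the value was 0.03, without CTR replicate 2 -0.65. Eif3i, a peripheral subunit at chr4:129591960-129600648, had 146 and 137 CPM in CTR, 89 and 56.9 in OAT-1746, 131 and 119 in anti-PD-1, and 123, 185 and 157 in COMB. OAT-1746 was lowest, by -0.96 ± 0.25, and COMB replicate 2 was highest. Eif3h, a subunit of the octamer core, had 363 and 362 CPM in CTR, 279 and 175 in OAT-1746, 277 and 279.5 in anti-PD-1, and 271, 379 and 348 in COMB. OAT-1746 replicate 2 stood lowest while OAT-1746 replicate 1 met the anti-PD-1 values, and the log2 fold change was -0.68 ± 0.24, or -0.37 without replicate 2 and -1.05 without replicate 1 of OAT-1746. Eif3m, of the same core, had 118 and 117 CPM in CTR, 78.2 and 67.4 in OAT-1746, 113 and 112 in anti-PD-1, and 108, 153 and 151 in COMB. Both of its OAT-1746 libraries were under all others, by -0.69 ± 0.19. The remaining 9 subunits differed by -0.38 (Eif3j1, -0.23 without CTR replicate 1) to -0.75 (Eif3e).

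**Figure D3:**
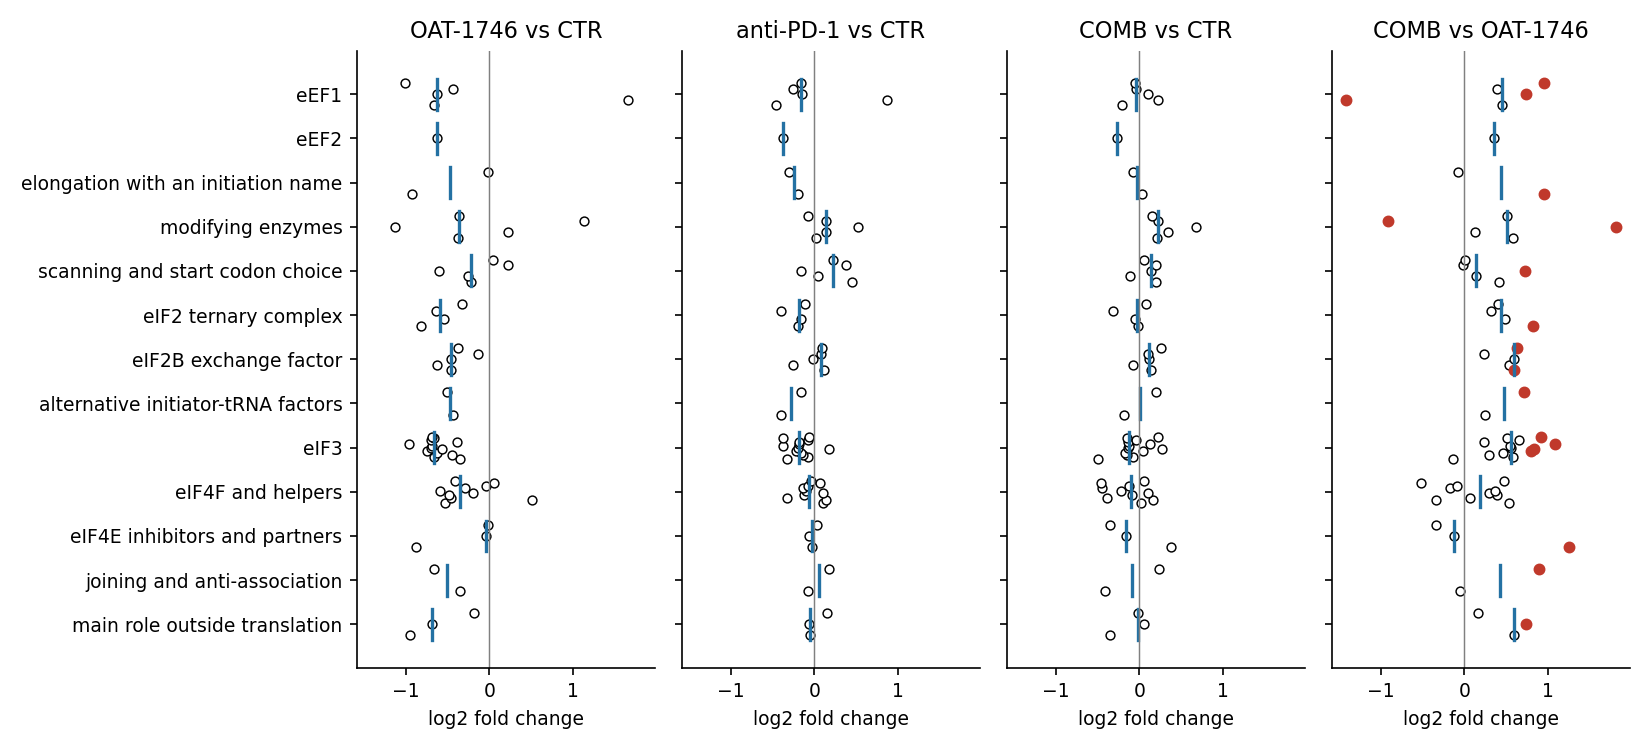
Log2 fold change of each member by role in the comparisons of the groups, with a point per gene (red where edgeR adjusted p was under 0.05) and a line for the role median. In OAT-1746 against CTR the eIF3, eIF2, eIF2B and eEF1 medians lie at -0.66, -0.59, -0.46 and -0.63, while the eIF4F median is -0.35.

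The cap complex eIF4F finds the mRNA cap and unwinds its leader, and its members were mixed. Of its 10 genes 8 were lower in OAT-1746 than in CTR, with a median of -0.35, or -0.17 without CTR replicate 1. Eif4a1, the main RNA helicase of the complex, had 593 and 519 CPM in CTR, 424 and 347 in OAT-1746, 611 and 579 in anti-PD-1, and 489.8, 628 and 569 in COMB. OAT-1746 was lowest, by -0.53 ± 0.19, and the other groups overlapped. Eif4a2, the paralogous helicase linked to repression by microRNAs, had 76.2 and 78.6 CPM in CTR, 97.9 and 122 in OAT-1746, 78.7 and 92.5 in anti-PD-1, and 87.6, 87.6 and 85.4 in COMB. OAT-1746 was highest, by 0.51 ± 0.16, and all 7 treated libraries were over CTR. The count ratio of Eif4a2 to Eif4a1 was 0.129 and 0.152 in CTR, 0.231 and 0.351 in OAT-1746, 0.129 and 0.16 in anti-PD-1, and 0.179, 0.139 and 0.15 in COMB. Eif4e, which binds the cap, had 83.4 and 86.2 CPM in CTR, 61.1 and 60.2 in OAT-1746, 78.5 and 77.7 in anti-PD-1, and 69.9, 89.2 and 79.9 in COMB. OAT-1746 was under all other libraries, by -0.48 ± 0.15. Eif4b, a helper of the helicase, had 422 and 306 CPM in CTR, 261 and 266 in OAT-1746, 264 and 317 in anti-PD-1, and 274, 275 and 284 in COMB. Its OAT-1746 and COMB libraries lay under CTR, where CTR replicate 1 was highest. Eif4h, a related helper, had 281 and 283 CPM in CTR, 236 and 188 in OAT-1746, 265 and 285 in anti-PD-1, and 265, 301 and 315 in COMB. OAT-1746 was lowest, by -0.41 ± 0.17, or -0.24 without OAT-1746 replicate 2.

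The scaffolds of that complex moved less. Eif4g1, the main scaffold, had 279.6 and 227 CPM in CTR, 208 and 208 in OAT-1746, 182 and 279 in anti-PD-1, and 205, 151 and 199 in COMB. OAT-1746 lay under CTR by -0.29 ± 0.24 (-0.12 without CTR replicate 1, -0.44 without CTR replicate 2), and all COMB libraries were lower still. Eif4g2, a scaffold without the cap-binding partner site, had 939.5 and 844 CPM in CTR, 854 and 882 in OAT-1746, 719 and 966 in anti-PD-1, and 798, 802 and 854 in COMB. Its groups overlapped, at -0.04 ± 0.18. Eif4ebp1, the binding protein that blocks Eif4e until TOR phosphorylates it, had 63 and 59.5 CPM in CTR, 45.8 and 20.8 in OAT-1746, 63.2 and 56.6 in anti-PD-1, and 52.7, 95.3 and 90.8 in COMB. OAT-1746 replicate 2 was lowest and COMB replicates 2 and 3 were highest, and OAT-1746 differed from CTR by -0.88 ± 0.36, or -0.41 without its replicate 2 and -1.56 without its replicate 1. Eif4ebp2, its relative, had 175 and 166 CPM in CTR, 170.3 and 162 in OAT-1746, 150.4 and 176 in anti-PD-1, and 158, 147 and 154 in COMB. All COMB libraries lay under CTR and OAT-1746, while OAT-1746 overlapped CTR, at -0.04 ± 0.15.

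Subunit joining and ribosome release involve Eif5b and Eif6. Eif5b, the GTPase that joins the subunits, had 74.2 and 51.3 CPM in CTR, 54.1 and 44.1 in OAT-1746, 44.7 and 74.8 in anti-PD-1, and 47, 38.5 and 56.4 in COMB. Its groups overlapped. Eif6, which keeps free large subunits apart from small ones, had 98.2 and 102 CPM in CTR, 76.5 and 50.3 in OAT-1746, 118 and 108 in anti-PD-1, and 87.3, 137 and 130.4 in COMB. OAT-1746 was lowest, by -0.66 ± 0.25 (-0.37 without its replicate 2, -0.99 without its replicate 1), and anti-PD-1 lay over CTR. Eif2a, which can deliver initiator tRNA outside eIF2, had 74.8 and 77.2 CPM in CTR, 62.2 and 50.5 in OAT-1746, 59.6 and 55.5 in anti-PD-1, and 61.9, 72 and 66.9 in COMB. All 7 treated libraries lay under CTR, and OAT-1746 differed by -0.43 ± 0.15, or -0.28 without OAT-1746 replicate 2. Among genes with other tasks, Eef1e1, a scaffold of the tRNA synthetase complex, had 28.9 and 25.6 CPM in CTR, 15.5 and 12.7 in OAT-1746, 28.6 and 24.2 in anti-PD-1, and 14.5, 25.8 and 23.8 in COMB. Both OAT-1746 libraries were low, by -0.95 ± 0.26, and COMB replicate 1 lay between them. Eef1akmt4, which methylates a lysine of eEF1A, had 5.23 and 3.76 CPM in CTR, 1.51 and 2.58 in OAT-1746, 7.25 and 5.63 in anti-PD-1, and 6.23, 8.25 and 7.16 in COMB. OAT-1746 was lowest, by -1.13 ± 0.34, and anti-PD-1 and COMB lay over CTR. Its exons overlap a readthrough gene on the same strand, as do those of Eif4e3, so shared reads cannot be assigned.

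**Figure D4:**
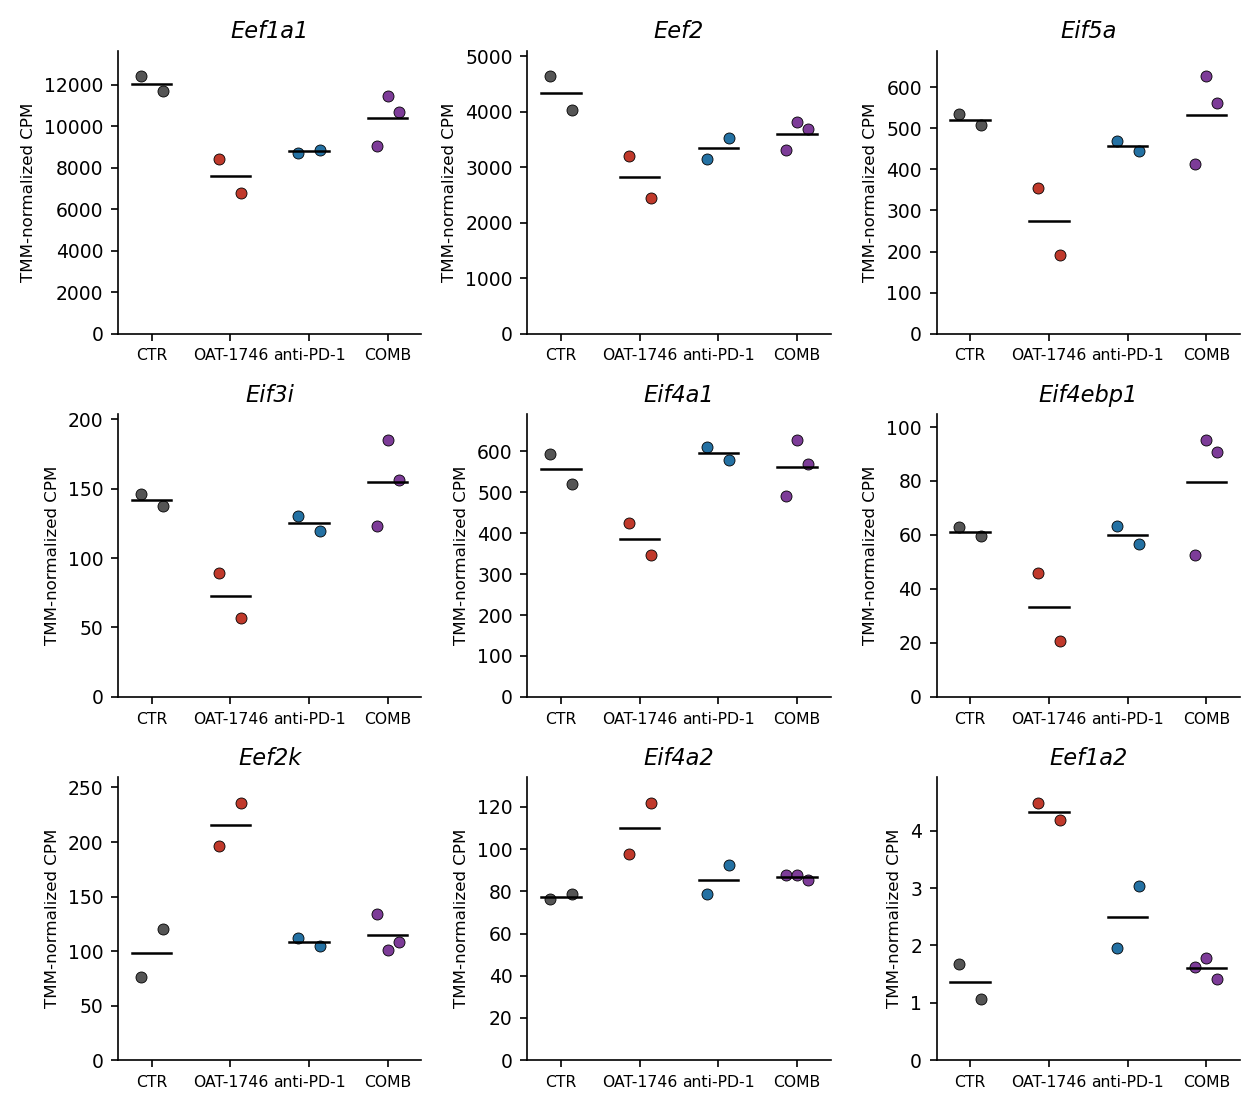
TMM-normalized CPM of 9 members by group, with a point per library and a line for the group mean. Eef1a1, Eef2 and Eif5a are lowest in OAT-1746, while Eef2k and Eef1a2 are highest there.

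The comparison of anti-PD-1 with CTR asks what checkpoint blockade alone does, and it shares the CTR libraries with the comparisons of OAT-1746 and COMB. Medians of cell type marker lists were 2.34 for NK cells, 1.01 for T cells and 0.40 for monocytes and macrophages. Those of microglia, neutrophils and cycling cells were 0.06, -0.28 and -0.71. From the CTR mean, the T cell median was 1.53 in anti-PD-1 replicate 1 and -0.04 in replicate 2. The part of these lists in the result was not tested. The member median was -0.08 over Eif genes and -0.06 over Eef genes, or -0.10 and -0.23 by function, and 40 of 60 members were lower. For 22 members the anti-PD-1 pair lay wholly under the CTR pair (36.7%, background 16.9%), and for 8 wholly over it (13.3%, background 20.6%). Of the 8 elongation genes by function, 6 lay wholly under CTR (75%) and 1 wholly over it (12.5%). In edgeR 0 members and 0% of all genes passed the adjusted threshold, and DESeq2 called 0 members (background 0.112%). At an unadjusted p under 0.05 there were 5 members (background 5.12%), 2 higher and 3 lower. Eif1 was higher by 0.45 ± 0.18 (0.28 without CTR replicate 2) and Eif1b by 0.38 ± 0.14 (0.25 without anti-PD-1 replicate 1). Eef1a1 was lower at -0.46 ± 0.20, Eif2a at -0.40 ± 0.15 and Eif2s3x at -0.40 ± 0.16 (-0.24 without anti-PD-1 replicate 1). For all of these genes the anti-PD-1 and CTR libraries did not overlap. Leaving out a library moved these counts to 0 higher (without CTR replicate 2 or COMB replicate 3) or 1 (without either anti-PD-1 replicate). It moved them to 0 lower (without CTR replicate 1 or anti-PD-1 replicate 1), 1 (without anti-PD-1 replicate 2 or COMB replicate 2) or 5 (without OAT-1746 replicate 2).

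The comparison of COMB with CTR asks what both agents do together. Members lay close to CTR, with medians of -0.03 over Eif genes and 0.13 over Eef genes, or -0.04 and -0.05 by function, and 31 of 60 lower. Both signs turned with a library left out: the Eif median was 0.04 without CTR replicate 1, and the Eef median -0.02 without CTR replicate 2. In edgeR 0 members and 0% of all genes passed the adjusted threshold, DESeq2 called 0 members (background 0.279%), and 2 members had an unadjusted p under 0.05 (background 6.58%). Eef1akmt4 was higher at 0.68 ± 0.29 and Eif4b lower at -0.39 ± 0.17. Both genes had all COMB libraries on 1 side of CTR, and Eif4b was at -0.12 without CTR replicate 1, its highest library, and at -0.61 without CTR replicate 2. Eef1a1 and Eef2 lay under CTR in all 3 COMB libraries, Eef1a1 by -0.21. From the CTR mean Eef1a1 stood at -0.41 in COMB replicate 1, -0.07 in replicate 2 and -0.17 in replicate 3, so replicate 1 weighed most. The members at an unadjusted p under 0.05 numbered 0 without COMB replicate 2 or COMB replicate 3, 1 without CTR replicate 1, and 4 without CTR replicate 2 or COMB replicate 1.

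Between COMB and anti-PD-1, which asks what the arginase inhibitor adds to the antibody, the medians were 0.04 over Eif genes and 0.18 over Eef genes. Without COMB replicate 2 they were 0.01 and 0.06, and the Eif median was 0.15 without anti-PD-1 replicate 2. In edgeR 0 members and 0% of all genes passed the adjusted threshold, and DESeq2 called 0 members (background 0.375%). At an unadjusted p under 0.05 there was 1 member (background 7.23%), Eif4g3, an eIF4G scaffold, at -0.53 ± 0.23 with overlapping groups, or -0.18 without anti-PD-1 replicate 2 and -0.80 without anti-PD-1 replicate 1. That count was 0 without CTR replicate 1, CTR replicate 2, anti-PD-1 replicate 2 or COMB replicate 2, 2 without OAT-1746 replicate 2, 3 without anti-PD-1 replicate 1 and 5 without COMB replicate 1. COMB was the higher group for 39 of 60 members. Medians of cell type marker lists were -1.12 for NK cells, -0.61 for monocytes and macrophages and -0.37 for T cells. Those of microglia, cycling cells and neutrophils were 0.13, 0.25 and 0.83, and the part of these lists was not tested.

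COMB against OAT-1746 asks what the antibody adds to the arginase inhibitor, and it shares the OAT-1746 libraries with the comparison against CTR. Most factors were higher in COMB: 48 of 60 members had a positive log2 fold change and 39 lay higher in all 3 COMB libraries than in both OAT-1746 libraries (65%, background 25%). Medians were 0.44 over Eif genes and 0.48 over Eef genes, or 0.46 and 0.42 by function, where all genes tested had 0. In edgeR 16 members rose (26.7%, background 6.84%) and 2 fell (3.33%, background 8.94%) at an adjusted p under 0.05, and DESeq2 called 26 higher (background 13.2%) and 2 lower (background 11.3%). Of the Eif genes 13 rose and 0 fell, and of the Eef genes 3 rose and 2 fell. Among elongation factors, Eef1g rose by 0.96 ± 0.27 (edgeR adjusted p 0.0454). Eif5a rose by 0.96 ± 0.27 (edgeR adjusted p 0.0449). Eef1b2 rose by 0.74 ± 0.17. Eef1a2 fell, with a log2 fold change of -1.42 ± 0.34 (edgeR adjusted p 0.0325). In all of these the COMB and OAT-1746 libraries were apart. Eef1a1 was higher in COMB at 0.45 ± 0.18 and Eef2 at 0.35 ± 0.18, and neither passed (edgeR adjusted p 0.111 and 0.19). Among enzymes, Eef2k fell, at -0.92 ± 0.21 (edgeR adjusted p 0.031). Eef1akmt4 rose by 1.82 ± 0.32 (edgeR adjusted p 0.0193), the largest rise of a member. Of 13 eIF3 subunits 12 were higher and 4 rose: Eif3i at 1.09 ± 0.23, Eif3m at 0.92 ± 0.18, Eif3f at 0.84 ± 0.19 and Eif3e at 0.80 ± 0.19. In eIF2 and eIF2B, Eif2s1 rose at 0.82 ± 0.21, Eif2b5 at 0.63 ± 0.16 and Eif2b1 at 0.60 ± 0.17. Others that rose were Eif4ebp1 (1.26 ± 0.34, edgeR adjusted p 0.0424), Eif6 (0.90 ± 0.24), Eif1ad (0.74 ± 0.20), Eif1ax (0.73 ± 0.18) and Eif2d (0.71 ± 0.21), the last an alternative deliverer of tRNA. In the cap complex eIF4F 0 of 10 passed in edgeR, against 5 at an unadjusted p under 0.05 (background 37.1%) and 3 in DESeq2 (background 24.4%), and its median was 0.19, or 0.10 without OAT-1746 replicate 2. The edgeR calls numbered 0 without OAT-1746 replicate 2, COMB replicate 2 or COMB replicate 3, 6 without CTR replicate 1, CTR replicate 2 or anti-PD-1 replicate 1 (10%, backgrounds 5.68%, 6.28% and 6.67%), 7 without anti-PD-1 replicate 2 (11.7%, background 7.18%), 24 without COMB replicate 1 (40%, background 23.4%) and 32 without OAT-1746 replicate 1 (53.3%, background 31.4%). Fitting the groups compared alone left 0 calls, and the medians were 0.28 for initiation and 0.32 for elongation without OAT-1746 replicate 2. Without that library the log2 fold change was 0.59 for Eef1g, 0.60 for Eif5a, 0.45 for Eif2d, 0.81 for Eif4ebp1 and 0.18 for Eef2. Without OAT-1746 replicate 1 it was 1.49 for Eef1g, 1.48 for Eif5a, 1.94 for Eif4ebp1 and 0.56 for Eef2.

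The interaction asks whether OAT-1746 acts differently under the antibody, as COMB minus anti-PD-1 less OAT-1746 minus CTR, and it uses all 9 libraries. Members leaned to positive values, with medians of 0.51 over Eif genes and 0.65 over Eef genes, or 0.51 and 0.81 by function, and 48 of 60 positive. In edgeR 0 members passed (background 0.359%), with a lowest adjusted p of 0.0819. At an unadjusted p under 0.05, 28 were positive (background 11.8%) and 3 negative (background 14.4%), and DESeq2 called 10 in all (background 8.18%). Eef1a1 had 0.91 ± 0.27, Eef1b2 0.89 ± 0.25 and Eif3i 1.27 ± 0.33, while Eef1a2 had -2.29 ± 0.51 and Eef2k -1.06 ± 0.32. Without OAT-1746 replicate 1 edgeR called 25 members (41.7%, background 21.3%) and without COMB replicate 1 it called 2 (3.33%, background 3.4%). Positive members at an unadjusted p under 0.05 numbered 18 without CTR replicate 1, 17 without OAT-1746 replicate 2, 15 without anti-PD-1 replicate 1 and 18 without COMB replicate 2. Interaction medians of other lists were 0.92 for ribosomal proteins, with 74 of 77 positive at an unadjusted p under 0.05 (background 11.8%), 1.64 for cycling cells, with 7 of 10, -0.88 for microglia, 0.34 for monocytes and macrophages, -0.06 for neutrophils, -1.12 for NK cells and -1.51 for T cells. Without OAT-1746 replicate 2 the cycling median was 1.09, that of monocytes and macrophages -0.27 and that of neutrophils 0.66. Without OAT-1746 replicate 1 it was 2.5 for cycling cells, 2.15 for monocytes and macrophages and 0.05 for NK cells. Microglia had -0.59 without CTR replicate 1 and T cells 0.03 without anti-PD-1 replicate 1, and the part of these lists in the result was not tested.

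Other translation genes were mixed. Of 36 in 8 lists, 0 passed in edgeR in OAT-1746 against CTR, with 15 at an unadjusted p under 0.05 (41.7%, background 32.3%) and 8 called by DESeq2 (22.2%, background 15.9%). The regulatory phosphatase subunit Ppp1r15a, which restores eIF2 after stress, had 93 and 80.3 CPM in CTR, 191 and 348 in OAT-1746, 62.9 and 144 in anti-PD-1, and 47.2, 45.4 and 54.5 in COMB. OAT-1746 was highest and COMB lowest. Between COMB and OAT-1746, 8 of the 36 passed in edgeR (22.2%, background 15.8%) and DESeq2 called 10 (27.8%, background 24.4%). In COMB against OAT-1746 Ppp1r15a fell, at -2.46 ± 0.34 (edgeR adjusted p 0.0143). The other phosphatase subunit listed, Ppp1r15b, with -0.46 ± 0.15, passed in DESeq2 (adjusted p 0.0296) but not in edgeR (adjusted p 0.0613). Of 10 initiation partners 1 rose, Mcts1, which recycles small subunits, and 2 fell, the helicase Ddx3x and the eIF4E kinase Mknk1. Ddx3x had 399.6 and 355 CPM in CTR, 512 and 702 in OAT-1746, 305 and 371 in anti-PD-1, and 299.6, 248 and 278 in COMB. OAT-1746 lay over all other groups. Of 5 TOR pathway genes 1 fell, Rptor, the scaffold of TOR complex 1. Of 2 hypusine enzymes 1 rose in edgeR, Dhps, which starts the modification of Eif5a, with 18.1 and 20.4 CPM in CTR, 13.8 and 12.5 in OAT-1746, 19.1 and 16.4 in anti-PD-1, and 16.7, 21.7 and 22.9 in COMB. OAT-1746 lay under all other libraries there. DESeq2 called both hypusine enzymes higher, Dhps at an adjusted p of 0.0181 and Dohh at 0.043. Of 7 mitochondrial factors 2 rose, Tsfm and Gfm2. Of 4 eIF2 kinases, 5 termination and recycling genes and Eefsec, the selenocysteine elongation factor, 0 passed in edgeR and 0 in DESeq2, with 1 eIF2 kinase at an unadjusted p under 0.05. These 8 calls numbered 3 without CTR replicate 1, CTR replicate 2, anti-PD-1 replicate 1 or anti-PD-1 replicate 2, and 0 without OAT-1746 replicate 2, COMB replicate 2 or COMB replicate 3. Of the 8, Ppp1r15a alone stayed when only the groups compared were fitted (edgeR adjusted p 0.0423).

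List medians in OAT-1746 against CTR were 0.11 for the eIF2 kinases, 0.93 for the phosphatase subunits, -0.09 for initiation partners, 0.01 for the TOR pathway, -0.53 for hypusine enzymes (-0.32 without OAT-1746 replicate 2), 0.11 for termination and recycling, 0.06 for Eefsec and -0.45 for mitochondrial factors. In 2 lists the OAT-1746 libraries differed in sign from the CTR mean. The eIF2 kinase median was -0.03 in replicate 1 and 0.27 in replicate 2. That of termination and recycling was -0.06 and 0.04. Cytosolic ribosomal proteins, which build the ribosome that these factors serve, summed to 56035 and 50709 CPM in CTR, 36536 and 26836 in OAT-1746, 50673 and 46124 in anti-PD-1, and 46054, 63963 and 54839.7 in COMB. Of 78 such genes 77 were tested and Rpl24 had 0 counts in each library. All 77 had a negative log2 fold change in OAT-1746 against CTR (median -0.76). In edgeR 0 passed, against 75 at an unadjusted p under 0.05 (97.4%, background 32.3%) and 69 in DESeq2 (background 15.9%). For COMB against OAT-1746 the median was 0.81 and 56 rose in edgeR (72.7%, background 6.84%). Those calls numbered 26 without CTR replicate 1, 25 without CTR replicate 2, 28 without anti-PD-1 replicate 1, 30 without anti-PD-1 replicate 2, 1 without OAT-1746 replicate 2 or COMB replicate 2, 0 without COMB replicate 3, 71 without OAT-1746 replicate 1 and 65 without COMB replicate 1. Fitting the groups compared alone left 1. Ribosomal proteins thus followed the members' direction in both comparisons, which share the OAT-1746 libraries.

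Cell type markers moved between libraries as well. The sort marker Itgam, which encodes CD11b, had 302 and 369.5 CPM in CTR, 445 and 446 in OAT-1746, 294 and 327 in anti-PD-1, and 366, 307 and 328 in COMB, so the sorted identity was present in each. Of 10 microglia genes the sum was 13995 and 22132 CPM in CTR, 29412 and 36941 in OAT-1746, 21109 and 17124 in anti-PD-1, and 25782, 19223 and 18138 in COMB. None was at 0, and the OAT-1746 sums were highest. The median log2 fold change was 0.95 in OAT-1746 against CTR, with 0 of 10 called in edgeR, 10 at an unadjusted p under 0.05 (background 32.3%) and 8 in DESeq2 (background 15.9%). Of 10 monocyte and macrophage genes, with Tgfbi highest on the mean over libraries and Lyz2 highest in 5 of 9, the sum was 12247 and 11377 CPM in CTR, 8512 and 1698 in OAT-1746, 10839 and 13205 in anti-PD-1, and 9039, 10993 and 11373 in COMB. S100a4 was at 0 in OAT-1746 replicate 2, the lowest library for this list, and the median was -0.76, or -0.23 without that library. Of 10 neutrophil genes, led by Csf3r, the sum was 323 and 499 CPM in CTR, 532 and 722 in OAT-1746, 383 and 376 in anti-PD-1, and 456, 460.4 and 459.7 in COMB. None was at 0 and the median was 0.75, or 0.24 without OAT-1746 replicate 2 and 1.39 without CTR replicate 2. Of 10 NK cell genes, with Klrk1 highest on the mean and Gzma highest in 4 of 9 libraries, the sum was 66.9 and 74.9 CPM in CTR, 89.1 and 22 in OAT-1746, 279.8 and 168 in anti-PD-1, and 74.2, 139 and 147 in COMB. None was at 0, anti-PD-1 was highest, and the median in OAT-1746 against CTR was -0.01, or 0.56 without OAT-1746 replicate 2 and -0.98 without OAT-1746 replicate 1.

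Of 10 T cell genes 9 were found and 8 tested, and their sum, with Cd4 highest in all libraries but anti-PD-1 replicate 1, where Lck was, came to 13.5 and 13.3 CPM in CTR, 16.8 and 17.3 in OAT-1746, 29.5 and 15.6 in anti-PD-1, and 15.6, 13.8 and 16.7 in COMB. Cd3e, Cd3d and Cd3g were at 0 in CTR replicate 2 and Cd3e in OAT-1746 replicate 1, and the median was 0.29. Of 10 cycling genes, led by Pcna, the sum was 328 and 322 CPM in CTR, 206 and 112 in OAT-1746, 227 and 274 in anti-PD-1, and 241, 285 and 265 in COMB. None was at 0, and OAT-1746 was lowest. The median in OAT-1746 against CTR was -1.51, with 0 of 10 called in edgeR, 9 at an unadjusted p under 0.05 (background 32.3%) and 8 in DESeq2 (background 15.9%). Without OAT-1746 replicate 2 that median was -0.91. In COMB against OAT-1746 the medians were -0.70 for microglia, 0.68 for monocytes and macrophages, -0.18 for neutrophils, 1.08 for NK cells, 0.18 for T cells and 0.88 for cycling cells. Without OAT-1746 replicate 2 these were 0.02 for monocytes and macrophages, 0.26 for neutrophils, 0.46 for NK cells and 0.40 for cycling cells, while microglia had -0.52. With or without that library, the OAT-1746 median was thus under those of CTR and COMB for the cycling list and over them for the microglia list. The monocyte and neutrophil shifts against COMB rest on it. The part of these lists in the result was not tested.

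Transcript length moved with the libraries too. Over the 12538 genes, the Spearman correlation across genes of exon length with a library's log2 difference from the mean of all 9 libraries was 0.0492 and -0.161 in CTR, 0.217 and 0.306 in OAT-1746, -0.27 and 0.109 in anti-PD-1, and 0.0811, -0.428 and -0.262 in COMB. Genes are not independent replicates, so no p is given. Over the 60 members, the correlation of exon length with the log2 fold change was 0.309 in OAT-1746 against CTR, -0.163 in anti-PD-1 against CTR, -0.388 in COMB against CTR, -0.399 in COMB against OAT-1746, -0.207 in COMB against anti-PD-1 and -0.317 in the interaction. Short members thus tended to lower values in OAT-1746 against CTR and to higher values in COMB against CTR and against OAT-1746. Relative to tested genes of like exon length, an alternative chosen after seeing the data, the medians in OAT-1746 against CTR were -0.49 for initiation and -0.47 for elongation. For COMB against OAT-1746 they were 0.40 and 0.27. The part of length or RNA quality in the differences was not tested.

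**Figure D5:**
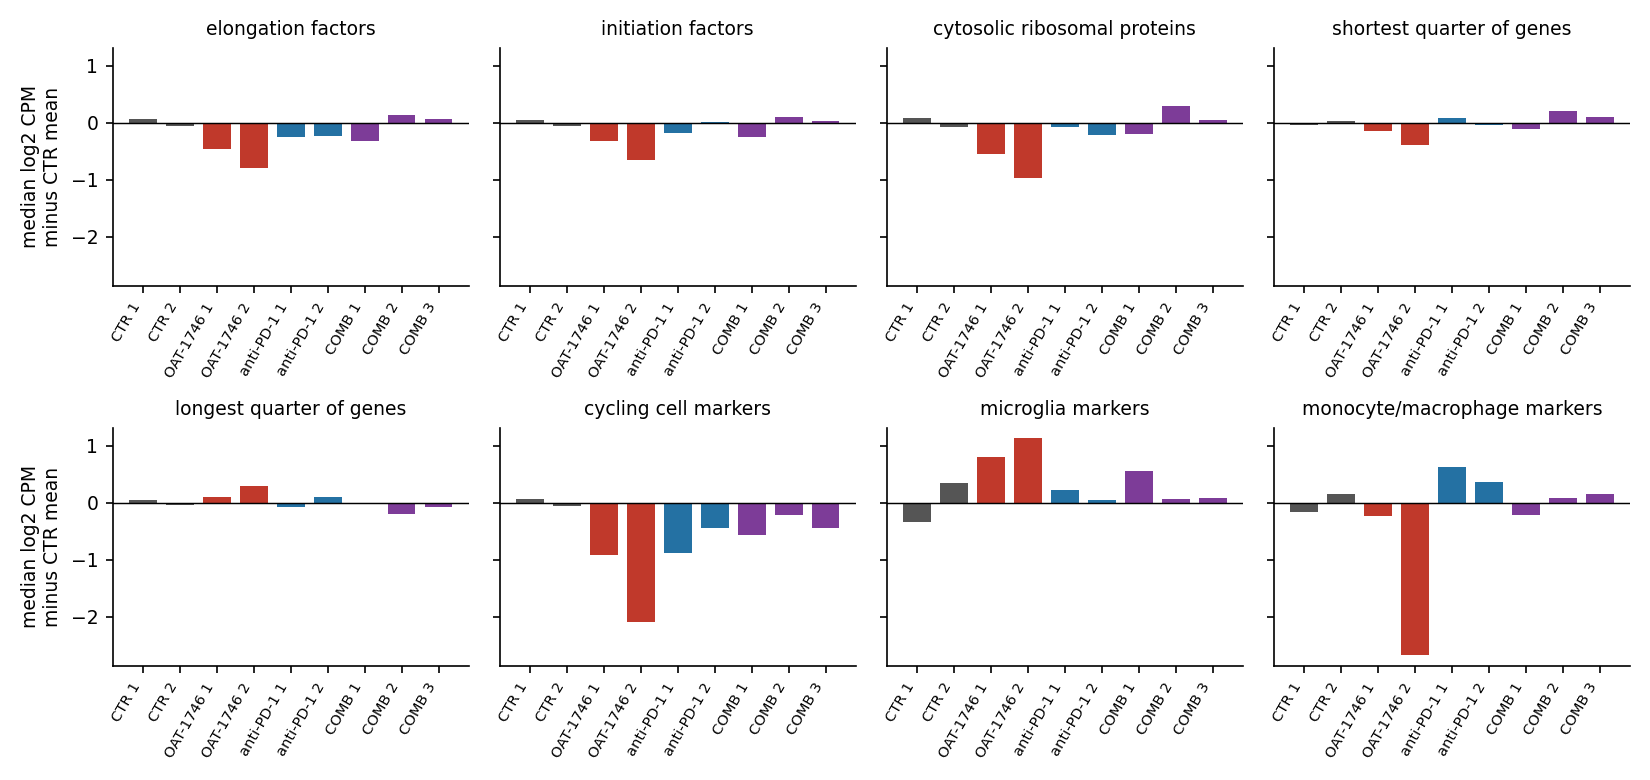
Median log2 CPM minus the CTR mean in each library, as bars colored by group, for the member classes by function, ribosomal proteins, the shortest and the longest genes, and marker lists. OAT-1746 replicate 2 lies at -2.67 for the monocyte list and -2.1 for the cycling list, under each other library.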

How the data were processed

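Raw counts per gene, as deposited, were made by the authors by trimming reads (Trimmomatic), aligning them to mm10 (STAR), marking duplicates (Picard) and counting reads of the reverse strand above a mapping quality (HTSeq). The authors' own tests used DESeq2. Versions of these tools stand in the study's methods. Gene class, position and exon length came from GENCODE M21, where 181 of 53801 listed genes had no entry. All 9 libraries were fitted together in edgeR 4.0.16 (R 4.3.3, limma 3.58.1) with TMM, filterByExpr, a mean per group and quasi-likelihood F tests. Benjamini-Hochberg adjustment covered 12538 protein-coding genes, and a gene was called at an adjusted p under 0.05. On simulated data with the same group sizes, where 200 genes were changed by a fold of 4, edgeR called 191 of these and 7 unchanged genes. DESeq2 called 199 of them and 26 unchanged genes. The simulation did not cover smaller changes or changes in many genes at once. Total counts ran from 13048075 to 18796479, and the floor of 3 counts covers counting error only.

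Members and lists (microglia, monocytes and macrophages, neutrophils, NK cells, T cells, cycling cells, Itgam, eIF2 kinases, phosphatase subunits, initiation partners, TOR pathway, hypusine enzymes, termination, Eefsec, mitochondrial factors and ribosomal proteins) were chosen with earlier results of these data known. A marker gene counted within its list is not reported here by itself. Named genes were the core of each role and, per comparison with CTR, up to 5 members with the largest rise and fall at an unadjusted p under 0.05 without overlap of the groups. The members nearest the floor on each side were named as well. Eif1ax, Eif1ad, Eif2d, Eif3a, Eif3e, Eif3f, Eif3h, Eif3m, Eif4g3 and Eif5a2 were named after their values were seen. Alternatives were DESeq2 1.42.0, RLE or library-size scaling, all genes, no filter or a floor of 10 counts, a replicate block, only the groups compared, each library left out, classes by function, all Eif and Eef genes tested, sums without TMM, and the longest transcript for length.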

Additional observations from a re-analysis of the deposited data

How the results depend on the processing

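The initiation and elongation medians kept a negative sign in OAT-1746 against CTR and a positive sign in COMB against OAT-1746 and in the interaction under each alternative run. Scaling by RLE or library size, all genes, and the floor of 10 counts left 0 members called in each comparison other than that of COMB with OAT-1746, where the calls ran from 16 to 21.

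In OAT-1746 against CTR, where edgeR called 0 members, DESeq2 called 23 (38.3%, against 15.9% of all genes) and the fit with no filter called 3 (5%, against 3.65%). The 34 members lower at an unadjusted p under 0.05 became 19 with the replicate block and 20 when only the groups compared were fitted. In COMB against OAT-1746, where edgeR called 18 (30%, against 15.8% of all genes), DESeq2 called 28 (46.7%, against 24.4%), the replicate block 0 and the fit of only the groups compared 0. Under these 2 settings the 56 calls among ribosomal proteins became 0 and 1, and the 8 among other translation genes 0 and 1. The interaction had 0 calls in edgeR and 10 in DESeq2 (16.7%, against 8.18%). The elongation median in COMB against CTR was 0.13 by symbol and -0.05 by function. In COMB against OAT-1746 it was 0.48, and 0.27 relative to genes of like exon length, an alternative chosen after seeing the data. Under the replicate block the 5 members at an unadjusted p under 0.05 in anti-PD-1 against CTR became 0, the 2 in COMB against CTR 0, the 1 in COMB against anti-PD-1 0 and the 28 positive in the interaction 9. In COMB against CTR, RLE, library size, no filter and the floor of 10 counts gave 1, and the fit of only the groups compared gave 1 higher and 4 lower. In COMB against anti-PD-1, DESeq2, RLE, library size, all genes, the floor and the fit of only the groups compared gave 0. Across groups, correlations of deviations from the group mean ran from -0.349 to 0.0999 between libraries of the same number. In groups of 2 such deviations mirror each other, so these values cannot decide whether replicate numbers pair. For these differences the cause was not tested, apart from the fewer libraries in the fit of only the groups compared.

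With each library left out in turn, members called ran from 0 to 33 in OAT-1746 against CTR, 0 to 32 in COMB against OAT-1746 and 0 to 25 in the interaction, and were 0 throughout in the other comparisons. The highest of these counts came without OAT-1746 replicate 1, where 28.2%, 31.4% and 21.3% of all genes tested were called. Members lower at an unadjusted p under 0.05 in OAT-1746 against CTR ran from 13 to 37. In OAT-1746 against CTR the initiation median ran from -0.64 to -0.29 and the elongation median from -0.77 to -0.39. In COMB against OAT-1746 they ran from 0.28 to 0.65 and from 0.32 to 0.69, and in the interaction from 0.42 to 0.72 and from 0.52 to 0.87. In anti-PD-1 against CTR they ran from -0.18 to -0.01 and from -0.14 to -0.03, in COMB against CTR from -0.10 to 0.04 and from -0.02 to 0.17, and in COMB against anti-PD-1 from 0.01 to 0.15 and from 0.06 to 0.26. A lone library left in a group is assumed to vary like the other groups.

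With 2 libraries in 3 of the groups, the spread of each gene is borrowed across groups. Counts measure RNA of a sorted mixture, so protein level, phosphorylation and translation were not measured. Several marker lists and the relation to exon length differed between OAT-1746 and other groups, OAT-1746 replicate 2 stood apart, and their part in the result was not tested.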
